A study of Mus musculus with 12 samples.

Results

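Scavenger receptors are surface and lysosomal proteins with which macrophages bind and take in modified lipoproteins, polyanions, microbes, haemoglobin complexes and debris. The 10 genes described here, Msr1, Marco, Colec12, Cd36, Scarb1, Cd68, Olr1, Stab1, Cd163 and Mrc1, were selected by symbol from a table of 24221 genes, and all 10 were found. They were chosen with earlier results of the same table known, so their changes are described against the whole table. The cells were mouse (C57BL/6) acute myeloid leukaemia cells driven by the MLL-AF9 fusion with loxP-flanked Riok2 alleles (Riok2fl/fl), 72 h after hydroxytamoxifen (OHT) or its vehicle ethanol (EtOH), with 3 samples in each group. RIOK2 is an atypical kinase needed to finish small ribosomal subunits in the cytoplasm, and OHT is used to switch on tamoxifen-dependent Cre recombinases. The sources used here do not give the Cre transgene, the number of leukaemia clones or whether replicates were separate cultures. The p-values therefore reflect how far these samples scatter, and that scatter may be technical. Both groups carried the floxed alleles, so the action of OHT itself and the loss of Riok2 cannot be told apart. The study also has 3 samples of MLL-AF9 cells given a RIOK2 inhibitor (RIOK2i) at 1 µM and 3 given DMSO, which are not analysed here.

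The class A receptors are trimers with a collagen-like stalk that binds polyanionic ligands, and macrophages and some endothelial cells carry them. Class B receptors cross the membrane at both ends and handle fatty acids and lipoproteins. Other classes are built on different folds, such as the C-type lectin domain of the class E receptor LOX-1 (Olr1) and the scavenger receptor cysteine-rich domains of CD163. The mannose receptor (Mrc1) is an endocytic lectin with several carbohydrate-binding domains and is often described beside them as a macrophage uptake receptor.

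The promoter stretches below show the regulatory DNA just upstream of 3 members that rose in OHT (Marco, Mrc1 and Cd68) and of 1 abundant member that did not pass the test (Olr1). Each is the 250 bases before the RefSeq gene start on GRCm38.p6, written 5′ to 3′ on the gene's strand. Capitals mark GAGGAA, the core of sites for the myeloid factor PU.1, on either strand (TTCCTC on the other), and TGANTCA, the site of AP-1 dimers.
Marco, chr1:120505025-120505274, minus strand: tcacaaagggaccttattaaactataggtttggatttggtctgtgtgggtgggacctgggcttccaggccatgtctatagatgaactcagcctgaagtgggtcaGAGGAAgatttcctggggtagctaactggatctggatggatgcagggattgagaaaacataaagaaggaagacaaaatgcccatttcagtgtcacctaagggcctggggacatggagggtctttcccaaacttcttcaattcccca
Mrc1, chr2:14229164-14229413, plus strand: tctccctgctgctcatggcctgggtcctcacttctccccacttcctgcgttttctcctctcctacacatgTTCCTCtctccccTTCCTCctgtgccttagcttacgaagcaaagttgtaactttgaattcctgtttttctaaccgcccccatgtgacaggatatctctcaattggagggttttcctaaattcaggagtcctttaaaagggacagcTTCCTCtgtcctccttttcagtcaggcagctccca
Cd68, chr11:69666171-69666420, minus strand: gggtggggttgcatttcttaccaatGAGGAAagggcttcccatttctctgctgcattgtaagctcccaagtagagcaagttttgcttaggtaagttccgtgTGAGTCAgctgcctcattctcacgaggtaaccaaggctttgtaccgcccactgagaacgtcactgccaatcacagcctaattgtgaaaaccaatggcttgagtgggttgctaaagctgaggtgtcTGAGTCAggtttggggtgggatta
Olr1, chr6:129507166-129507415, minus strand: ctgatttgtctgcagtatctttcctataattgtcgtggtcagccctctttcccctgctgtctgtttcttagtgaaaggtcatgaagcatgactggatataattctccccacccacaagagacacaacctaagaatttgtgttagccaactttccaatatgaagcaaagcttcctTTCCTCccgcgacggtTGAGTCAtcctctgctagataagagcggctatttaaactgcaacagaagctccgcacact
Positions of a match's first base are counted back from the gene start. In the Marco promoter the single GAGGAA match lay at -146. The Mrc1 promoter held 3 matches on the opposite strand, at -180, -167 and -35. The Cd68 promoter held a GAGGAA match at -225 and TGANTCA matches at -149 and -24. The Olr1 promoter held GAGGAA on the opposite strand at -76 and TGANTCA at -60, though its gene did not pass the test. Promoters were matched for 7 members, and those of Colec12, Msr1 and Scarb1 were not used here. GAGGAA was present in 5 of these 7 and in 23.3% of 32851 promoters of the same length, and TGANTCA in 2 of 7 and in 6.75% of promoters. Among the 5 with GAGGAA were Olr1 and Stab1, which did not pass the test. The windows of Cd36 and Cd163, not printed, held neither motif. That of Cd36 lies inside the gene span given for Cd36 below, before an internal start. TGANTCA reads the same on both strands and did not overlap GAGGAA. The E-box CACGTG, the antioxidant response element core TGACNNNGC and the direct repeat bound by PPAR and RXR dimers were searched on both strands and found in 0 of the 7 windows, beside 6.02%, 10.2% and 0.0335% of promoters.

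The table holds 6 numbers for a gene and 0 columns of values per sample. The base mean is the mean of normalised reads over the 6 libraries, and the base means of all genes summed to 20307732 normalised reads. This sum does not show how depth differs between libraries. Size factors recovered from low base means, given below, run from 0.697 to 1.88, both in OHT libraries. The fold change is on the log2 scale, is given with its standard error (SE), and is read as OHT over EtOH because Riok2 itself had a value of -3.60 ± 0.20 (SE) in the authors' deposited table. A gene was called when the authors' adjusted p was under 0.05. Of 13814 genes with an adjusted p, 48.9% were called, 25.5% higher and 23.4% lower in OHT, with a median log2 fold change of 0.050. Among the 9888 of them whose base mean reached 100, 59.3% were called, 29.2% higher and 30% lower. Levels in the 2 groups were computed from the base mean and the deposited fold, and are called implied levels below. The deposited folds appear to be pulled towards 0, since no SE in the authors' deposited table exceeds 0.747 even for genes with few reads, and implied levels then lie closer together than the true ones. As in any bulk sample, more cells that express a receptor and more RNA per cell cannot be told apart.

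By the DESeq2 test of the authors, 5 of the 10 members rose in OHT, 0 fell, 4 did not pass the test and 1, Cd36, had no p-value. The 5 called among the 9 tested are 55.6%, beside 25.5% called higher among all tested genes. All 10 deposited folds were above 0, from 0.30 to 4.39 on the log2 scale, with a median of 2.32 over the 9 tested members in the authors' deposited table. The risers were the 3 class A members, the mannose receptor and CD68, the macrophage lysosomal glycoprotein. The members that did not pass were Olr1 (class E), Stab1 (class H), Cd163 (class I) and Scarb1 (class B).

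**Figure D1:**
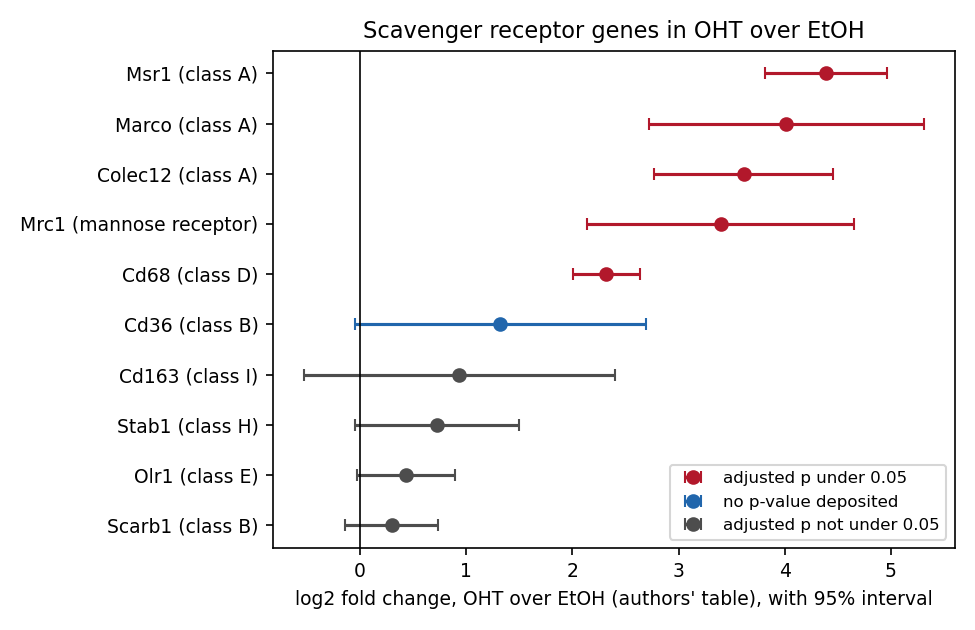
Log2 fold change in OHT over EtOH of the 10 receptor genes on the horizontal axis, as points with 95% intervals from the deposited standard errors. The intervals of Msr1, Marco, Colec12, Mrc1 and Cd68 begin at 2.00 or higher, and those of Cd36, Cd163, Stab1, Olr1 and Scarb1 include 0.

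The 3 class A genes among the members rose steeply. Outside the members, the class A genes Scara3 and Scara5 had base means of 0 and 0.40 and no adjusted p in the authors' deposited table. Msr1 (ENSMUSG00000025044.16, GRCm38 chromosome 8, 39581685 to 39642673, minus strand) encodes scavenger receptor A, which takes up acetylated and oxidised low-density lipoprotein and bacterial surface molecules. Its implied level was 4301 normalised reads in OHT and 205 in EtOH. The log2 fold change was 4.39 ± 0.29 (SE, adjusted p = 7.47e-48) by the authors' deposited table, the fourth largest of all tested genes, and amounts to 21.0-fold with a 95% interval of 14.1 to 31.3. Marco (ENSMUSG00000026390.7, chromosome 1, 120474538 to 120505024, minus strand), a receptor for bacteria and particles on subsets of tissue macrophages, had implied levels of 2373 normalised reads in OHT and 147 in EtOH. Its log2 fold change was 4.02 ± 0.66 (SE, adjusted p = 1e-08) by the authors' deposited table, or 16.2-fold with an interval of 6.60 to 39.6. Colec12 (ENSMUSG00000036103.9, chromosome 18, 9707595 to 9882644, plus strand), a class A receptor with a lectin domain best known from endothelium, had implied levels of 652 normalised reads in OHT and 53.3 in EtOH. Its log2 fold change was 3.61 ± 0.43 (SE, adjusted p = 8.55e-16) by the authors' deposited table, or 12.2-fold with an interval of 6.83 to 21.9. The 3 intervals overlap, so the order among the class A folds is not resolved.

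Mrc1 and Cd68 rose as well. Mrc1 (ENSMUSG00000026712.3, chromosome 2, 14229392 to 14332057, plus strand), which clears mannosylated glycoproteins and collagen fragments, had implied levels of 9185 normalised reads in OHT and 871 in EtOH. Its log2 fold change was 3.40 ± 0.64 (SE, adjusted p = 7.28e-07) by the authors' deposited table, or 10.5-fold, with an interval of 4.41 to 25.2. Cd68 (ENSMUSG00000018774.13, chromosome 11, 69664213 to 69666153, minus strand), a heavily glycosylated protein of late endosomes and lysosomes, had implied levels of 3944 normalised reads in OHT and 791 in EtOH. Its log2 fold change was 2.32 ± 0.16 (SE, adjusted p = 8.15e-45) by the authors' deposited table, or 4.98-fold with an interval of 4.01 to 6.20. The interval of Cd68 on the log2 scale, 2.00 to 2.63, lies below those of Msr1, Marco and Colec12 and overlaps that of Mrc1. These intervals come from the same libraries and are set side by side as a description. With a Wald test of an absolute log2 fold change above 1, all 5 remained past the threshold, with adjusted p-values from 9.86e-28 for Msr1 to 0.00494 for Mrc1.

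Of the class B genes, Scarb1 had a high implied level in both groups. The level of Cd36 in EtOH is uncertain, because its fold has a wide SE and no p-value. Scarb1 (ENSMUSG00000037936.15, chromosome 5, 125277087 to 125341094, minus strand) encodes SR-BI, which takes cholesteryl ester from high-density lipoprotein. Its implied levels were 3925 normalised reads in OHT and 3195 in EtOH, and its log2 fold change was 0.30 ± 0.22 (SE, adjusted p = 0.273) by the authors' deposited table. The 95% interval of its fold runs from 0.909 to 1.66, so a doubling lies outside it and a small change of either sign inside. Cd36 (ENSMUSG00000002944.15, chromosome 5, 17781690 to 17888801, minus strand), a receptor for oxidised lipoprotein, thrombospondin and long-chain fatty acids, had a base mean of 2440 normalised reads and a log2 fold change of 1.32 ± 0.70 (SE) without a p-value by the authors' deposited table. Its implied levels were 3485 normalised reads in OHT and 1396 in EtOH, and the 95% interval of the fold, 0.966 to 6.45, includes 1. A normal p computed from the deposited fold and SE gave an adjusted p of 0.108 over 13865 genes.

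Cd36 belongs to a group of 51 genes with reads and a fold but an empty p-value in the authors' deposited table. DESeq2 leaves out a p-value when the count of a single sample departs strongly from its group, and which library this was is not in the table. Folds above 0 were listed for 50 of the 51 and a fold below 0 for 1 in the authors' deposited table. Their median SE was 0.70, beside 0.28 for the median of genes of like base mean in the authors' deposited table. Cd36 had the sixth largest base mean of the 51.

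Olr1, Stab1 and Cd163 gave no call. Olr1 (ENSMUSG00000030162.14, chromosome 6, 129485244 to 129507165, minus strand), which encodes LOX-1, a lectin-like receptor for oxidised lipoprotein, had implied levels of 2594 normalised reads in OHT and 1922 in EtOH. Its log2 fold change was 0.43 ± 0.24 (SE, adjusted p = 0.119) by the authors' deposited table, and the interval of its fold is 0.979 to 1.86. Stab1 (ENSMUSG00000042286.13, chromosome 14, 31139013 to 31168641, minus strand), which encodes stabilin-1, a clearance receptor of sinusoidal endothelium and some macrophages, had implied levels of 161 normalised reads in OHT and 97.3 in EtOH. Its log2 fold change was 0.73 ± 0.40 (SE, adjusted p = 0.119) by the authors' deposited table, with an interval of 0.966 to 2.83 for the fold. Stab1 shares 112 exon bases, 1.09% of its exon length, with Nt5dc2 on the opposite strand, and the sources used here do not say whether reads were counted by strand. For Olr1 and Stab1 the intervals include both no change and a rise of the size printed as their upper limit.

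Cd163 (ENSMUSG00000008845.9, chromosome 6, 124304656 to 124330527, plus strand), the haemoglobin-haptoglobin receptor of tissue macrophages, was close to undetected. Its base mean was 4.56 normalised reads and its log2 fold change 0.93 ± 0.75 (SE, adjusted p = 0.308) by the authors' deposited table. Because so few reads are involved, the base mean could be split into whole reads of each library. The 6 libraries could not be matched to sample names and are called A, B and C within each group, with size factors of 1.88, 1.01 and 0.697 for OHT and 1.11, 0.870 and 0.783 for EtOH. Cd163 had 9, 0 and 12 reads in OHT libraries A, B and C, against 2, 2 and 1 reads in EtOH libraries A, B and C. After division by the size factors these were 4.80, 0 and 17.2 normalised reads in OHT, against 1.80, 2.30 and 1.28 in EtOH. OHT libraries A and C were above all EtOH libraries and OHT library B was below them, so the groups overlap. A count of 0 in OHT library B allows up to 2.96 normalised reads, which is 3 reads at its size factor and covers counting error only. The level implied by the deposited fold, 5.99 in OHT and 3.14 in EtOH, lies closer together than these reads.

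The same split was made for the other genes with a base mean from 3 to 10 in the lists of further scavenger receptors, macrophage markers and endothelial markers, 6 genes with Cd163. C1qa, a complement subunit made by macrophages, had 8, 1 and 18 reads in OHT libraries A, B and C and 0 in each EtOH library. Cd5l, a secreted macrophage protein with scavenger receptor cysteine-rich domains, had 12, 0 and 16 reads in OHT libraries, against 0, 1 and 1 in EtOH libraries. Stab2, the paralog of Stab1, had 3, 2 and 29 reads in OHT libraries, against 3, 5 and 2 in EtOH libraries. In these 3 genes, as in Cd163, OHT library C held the most normalised reads and OHT library B held from 0 to 2 reads. Lyve1, a hyaluronan receptor, had 17, 12 and 6 reads in OHT libraries and 1, 1 and 2 in EtOH libraries, and Cd5 had 8, 7 and 2 in OHT libraries and 9, 7 and 7 in EtOH libraries. OHT library C was the highest of the OHT libraries in 4 of the 6 genes and in 46.4% of 1266 genes with a base mean from 3 to 10. In C1qa and Lyve1, 2 of the 6, all OHT libraries were above all EtOH libraries. For C1qa this rests on 1 read in OHT library B against 0 in each EtOH library. A count of 0 allows up to 3 reads, so OHT library B is not set apart from EtOH beyond counting error. The share of the 1266 genes without overlap between the groups was not computed, so this count has no background beside it. The part of library C in the rises of the abundant members was not tested, because their reads cannot be split in this way.

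**Figure D2:**
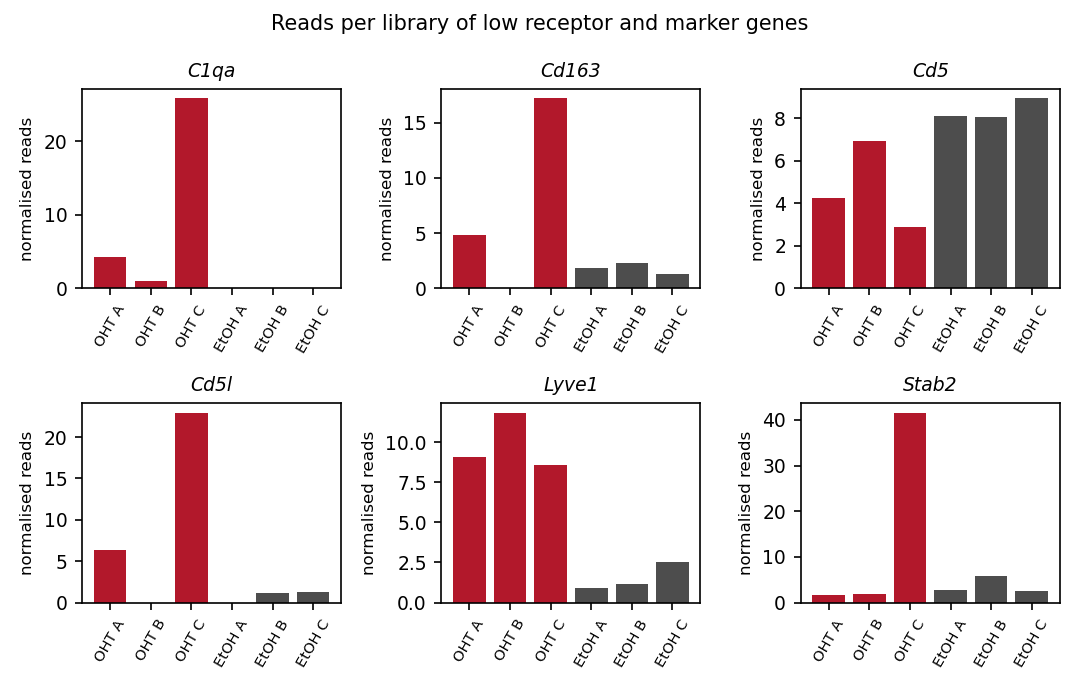
Normalised reads (vertical axis, a scale for each gene) of 6 low receptor and marker genes in OHT libraries A, B and C (red, left) and EtOH libraries A, B and C (grey, right), recovered from the base means. Cd163, C1qa, Cd5l and Stab2 are highest in OHT library C, whereas Lyve1 is high in all 3 OHT libraries and Cd5 is not higher in OHT.

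Per kilobase of exon, the order of the members differed between the groups. On the scale of implied normalised reads per kb, Cd68 was highest with 3138 in OHT and 630 in EtOH. Mrc1 followed in OHT with 1442, against 137 in EtOH, and Marco with 1233 in OHT, against 76.2 in EtOH. Cd36 had 971 in OHT and 389 in EtOH, and Olr1 had 726 in OHT and 538 in EtOH. Msr1 stood at 678 in OHT and 32.3 in EtOH, so it lay near Olr1 in OHT and far under it in EtOH. Scarb1 had 462 in OHT and 376 in EtOH. Colec12 had 74.8 in OHT and 6.11 in EtOH, Stab1 15.6 in OHT and 9.45 in EtOH, and Cd163 1.10 in OHT and 0.574 in EtOH. By implied level, Cd68, Olr1, Cd36 and Scarb1 ranked highest in EtOH, and in OHT Mrc1 and Marco stood above the last 3 of these. The places of Cd36, Marco and Mrc1 rest on folds with wide SEs of 0.70, 0.66 and 0.64. These levels carry no spread between samples, and neighbours in the order are not separated by a test.

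**Figure D3:**
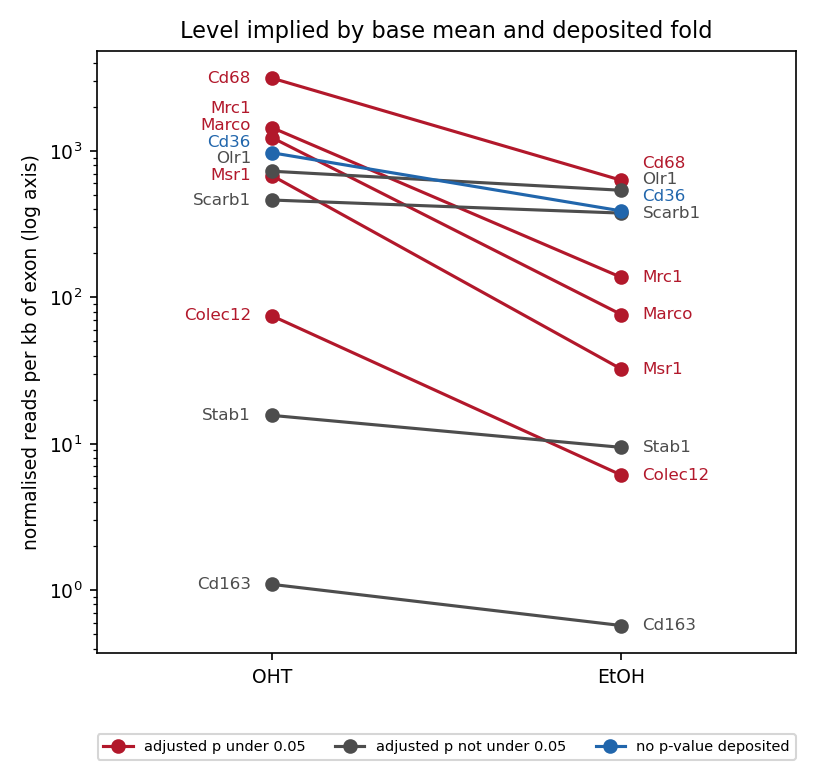
Implied level of each receptor gene in normalised reads per kb of exon (log axis) in OHT (left) and EtOH (right), joined by a line. Mrc1, Marco, Msr1 and Colec12 have the steepest lines, and Olr1 and Scarb1 the flattest among the abundant genes.

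The standard errors of the members were wide for their level. All 10 had an SE above the median of genes of like base mean (at most a ratio of 5 to 4 either way) in the authors' deposited table. The SE of Mrc1, 0.64, exceeded that of all 482 genes of like level, whose median was 0.15, in the authors' deposited table. The SE of Cd36 exceeded 99.9% of 1147 such genes and that of Marco 99.5% of 1567 in the authors' deposited table. Msr1 exceeded 98.3% of 1207 and Colec12 96.7% of 990, while Cd68 exceeded 57.4% of 1169 in the authors' deposited table. Where such genes had a log2 fold change of at least 2, their median SE was 0.20 around Mrc1 (11 genes), 0.28 around Marco (39 genes), 0.21 around Msr1 (36 genes), 0.30 around Colec12 (46 genes) and 0.22 around Cd68 (34 genes) in the authors' deposited table. Against that median the SE of Cd68, 0.16, was lower, as was that of Scarb1, 0.22 beside 0.25 (15 genes), in the authors' deposited table, while those of the other 8 members were higher. Among the 4874 genes whose base mean reached 1000, 58 (1.19%) had an SE above 0.5 in the authors' deposited table. A fold above 0 stood beside 54 of these 58 in the authors' deposited table, and beside 49.7% of all 4874, and Marco, Mrc1 and Cd36 are 3 of them. Without the genes of an SE above 0.5, 3 members were called higher, Msr1, Cd68 and Colec12.

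**Figure D4:**
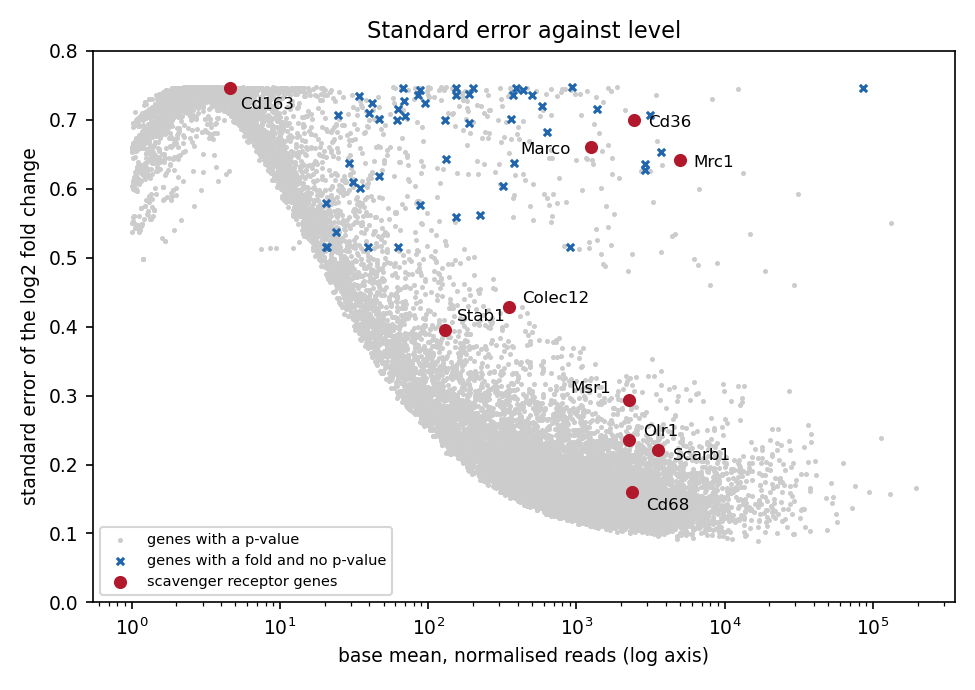
Standard error of the log2 fold change against base mean in normalised reads (log axis) for genes with a p-value (grey), genes with a fold and no p-value (blue crosses) and the 10 receptor genes (red). Marco, Mrc1 and Cd36 lie between 0.64 and 0.70, far above most genes of their level, and Cd68 lies at 0.16 within them.

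The nearest other genes in fold, at a base mean and SE within the same ratio of the member's, were found over this 1 comparison. Near Cd68 lay Plxnc1, a semaphorin receptor (2.37 ± 0.14 SE), on the log2 fold scale in the authors' deposited table. For Msr1 they were Vcan, a proteoglycan (3.78 ± 0.31), and Hmox1, which degrades haem (3.68 ± 0.27), in the authors' deposited table. For Colec12 they were Pid1 (3.42 ± 0.36) and the cyclin gene Ccnd1 (3.11 ± 0.43), and for Marco the membrane protein gene Myof (3.56 ± 0.69) and the integrin gene Itgax (2.59 ± 0.73), in the authors' deposited table. Mrc1 had no close match at its level and SE. The nearest, Cyp11a1 and Pdia4, had log2 fold changes of 0.47 and 0.33 in the authors' deposited table, which differ from that of Mrc1 by -2.92 and -3.06. Its SE exceeded that of all 482 genes of like base mean, so the SE limit narrowed the choice. Of these 482, 11 had a log2 fold change of at least 2. Stab1 lay near Abcb9 (0.72 ± 0.34) and Rltpr (0.73 ± 0.36), Olr1 near Wasf2 (0.44 ± 0.20) and Gapvd1 (0.45 ± 0.19), and Scarb1 near Sptbn1 (0.28 ± 0.22) and Mapk6 (0.27 ± 0.18), in the authors' deposited table. Cd163 lay near Sdsl (0.94 ± 0.74) and Cxx1c (0.93 ± 0.74) in the authors' deposited table.

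Other scavenger and endocytic receptors rose in part, beside 25.5% called higher and 23.4% lower over all tested genes. At a base mean of at least 100 these shares were 29.2% and 30%. Of 24 further scavenger receptors and related proteins, 18 were tested, 10 rose, 1 fell and 7 did not pass, with a median log2 fold change of 1.24 beside 0.050 over all tested genes. Clec7a, which encodes the beta-glucan receptor dectin-1 (2.78 ± 0.29 SE), Lgals3bp, a secreted galectin ligand (2.09 ± 0.28), Cd44, the hyaluronan receptor (1.60 ± 0.16), and Scarb2, a class B relative of the lysosomal membrane, rose in the authors' deposited table. The gene of this list that fell was Megf10, an engulfment receptor (-1.55 ± 0.35), in the authors' deposited table. Of 16 lipoprotein receptors and their regulators, 14 were tested, 8 rose and 2 fell (median 0.48). Lrp1, which takes up haemopexin and protease complexes (3.76 ± 0.29 SE), Lrp12 (1.91 ± 0.17), Sort1, the sorting receptor sortilin (1.57 ± 0.24), and Sorl1 (1.46 ± 0.23) rose in the authors' deposited table. By the authors' deposited table Vldlr, a receptor for triglyceride-rich lipoproteins, fell (-3.48 ± 0.58). Of 13 relatives of the mannose receptor and endocytic lectins, 5 were tested, 2 rose and 1 fell (median 0.82). The share called higher, 40%, rests on these 5 genes and is not set apart from that of all genes. Ly75, which encodes the antigen uptake receptor DEC-205 (2.81 ± 0.28 SE), and Lgals3, which encodes galectin-3 (2.48 ± 0.53), rose and Lman1, a cargo lectin of the secretory pathway, fell by 0.58 ± 0.18 in the authors' deposited table.

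Genes that handle what these receptors bring in were mostly called higher. Over all tested genes this share was 25.5%, and 29.2% at a base mean of at least 100. Of 22 lipid handling genes, 21 were tested, 19 rose and 0 fell (90.5%, median 1.49). Lpl, lipoprotein lipase (3.20 ± 0.30 SE), Abcg1, a cholesterol exporter (2.63 ± 0.14), Lipa, the lysosomal acid lipase (2.45 ± 0.21), and Rxra, a nuclear receptor partner of LXR and PPAR (2.43 ± 0.19), rose in the authors' deposited table. Of 18 haem and iron genes, 17 were tested, 12 rose and 0 fell (median 0.80). Slc11a1, a phagosomal metal transporter (4.12 ± 0.31 SE), Hmox1 (3.68 ± 0.27), the ferritin chain gene Fth1 (1.98 ± 0.22) and Slc40a1, the iron exporter (1.73 ± 0.20), rose in the authors' deposited table. All 25 endocytic machinery genes were tested, 18 rose and 0 fell (median 0.65). Hip1 (2.75 ± 0.35 SE), the clathrin adaptor Dab2 (2.16 ± 0.21), Arrb2 (1.42 ± 0.21) and the AP-2 subunit Ap2a2 (1.40 ± 0.16) rose in the authors' deposited table.

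Of 20 partners and sheddases of the receptors, 12 rose (60%, beside 25.5% of all tested genes) and 1 fell (median 0.83). The tetraspanin Cd9 (2.92 ± 0.18 SE), the CD36 partner Tlr2 (2.71 ± 0.33) and the integrin chain Itgb2 (1.93 ± 0.13) rose in the authors' deposited table, and the CD36 ligand gene Thbs1 fell (-2.06 ± 0.27). Of 23 transcription factors listed as regulators of macrophage genes, 16 rose and 0 fell (median 0.89). Fos (3.57 ± 0.21 SE), an AP-1 subunit, Egr2 (3.00 ± 0.62) and Mitf (2.38 ± 0.30), a lysosomal gene regulator, rose in the authors' deposited table. Spi1, which encodes PU.1, rose by 0.71 in the authors' deposited table.

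**Figure D5:**
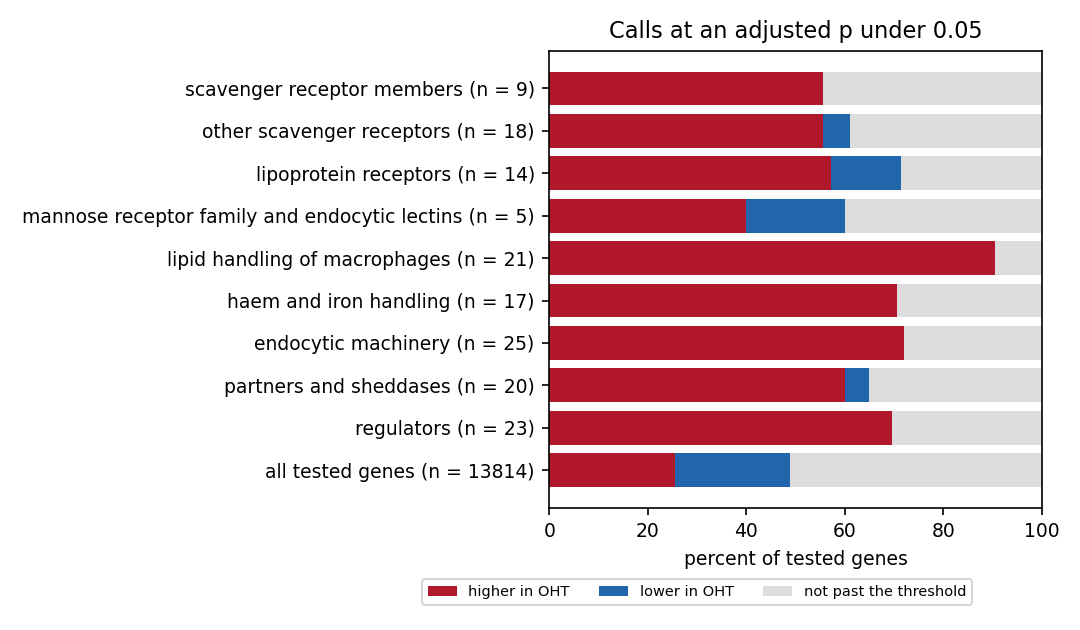
Percent of tested genes called higher (red), lower (blue) or not past the threshold (grey) in OHT for the receptor genes, the 8 lists around them and all tested genes, with the number tested in brackets. The receptor genes stand at 55.6% higher and the lipid handling list at 90.5%, beside 25.5% for all tested genes.

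Markers of the cells that could carry these receptors are set beside all tested genes, of which 25.5% were called higher and 23.4% lower. The share called higher was 90% of tested macrophage markers and 100% of tested neutrophil markers. It was nearer that of all genes for dendritic cell (25%), endothelial (33.3%), platelet (33.3%) and leukaemic blood cell markers (37.5%). Of 13 macrophage markers other than the members, 10 were tested and 9 rose, with a median of 2.91. The riser C1qa had a base mean of only 5.18 and, as given above, 1 read in OHT library B. Timd4 and Clec4f, of resident macrophages, had a base mean of 0 and Vsig4 one of 0.43 in the authors' deposited table. All 7 tested neutrophil markers rose as well (median 2.29). Of the leukaemic blood cell markers, 8 were tested, 3 rose and 3 fell. On the log2 scale Itgam (2.44), Ptprc (1.10) and Spi1 (0.71) rose, and Myb (-0.87), Hoxa9 (-0.55) and Meis1 (-0.41) fell, in the authors' deposited table. The lowest base mean among the 8 was 321, of Cd34, in the authors' deposited table. Of 8 endothelial markers, which matter for Stab1 and Colec12, 3 were tested and 1, Lyve1, rose, while Cdh5, Kdr, Tek, Emcn and Clec4g had base means from 0.0888 to 1.87 in the authors' deposited table. Pecam1, an adhesion molecule of endothelium that leukocytes and platelets also carry, stood at a base mean of 1579 in the authors' deposited table. It did not pass the test, its log2 fold being 0.24 ± 0.57 (SE, adjusted p = 0.761) by the authors' deposited table. Of 6 platelet and megakaryocyte markers, which matter for Cd36, 2 rose, Gp1ba and Gp1bb, and 0 fell. Among adipocyte, fibroblast, hepatocyte and lymphocyte markers, Adipoq, Lep, Dcn, Alb, Apoa1, Cd3e and Ms4a1 had a base mean of 0 in the authors' deposited table, and Col1a1 and Cd79a rose. The markers of steroid-making cells, which matter for Scarb1, were detected: Cyp11a1 had a base mean of 4618 and Star one of 58.3 in the authors' deposited table. Neither passed the test, with adjusted p-values of 0.483 for Cyp11a1 and 0.903 for Star in the DESeq2 fit of the authors' deposited table. Of 4 alveolar macrophage markers 2 were tested and 1, Car4, rose, and of 7 dendritic cell markers 4 were tested and 1, Itgax, rose. The part of a shift in cell makeup in the receptor changes was not tested.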

How the data were processed

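TruSeq libraries were made from column-purified RNA of mouse MLL-AF9 leukaemia cells, as the labels' protocols state. The submitters' processing notes list mm10 and the programs DESeq2, DESeq, HTSeq 0.9.1, STAR 2.7.2b and Trimmomatic 0.38.0. No source used here gives the annotation or strand setting. The authors deposited 1 table holding, for each gene, a signal (the base mean of normalised reads), a log2 fold change with its log2 standard error, a Wald score, and p-values before and after adjustment. The deposited score equalled fold over standard error within 7.56e-08, and a Benjamini-Hochberg adjustment gave the deposited adjusted values within 2.33e-07. The table has 0 columns of per-sample values, so no model was fitted here.

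The members and gene lists were chosen with earlier results of these data known, and no set test was made. Named list genes are up to 4 past the threshold with the largest absolute fold at a base mean of at least 100, and any against a list's main direction. Spi1, Scara3, Scara5 and the markers were named outside that rule, after their values were seen. Some genes that the rule names are not reported here. Implied levels solve base mean and fold for 3 libraries a group. Intervals are 95% normal intervals from the deposited standard error. Exon lengths are unions over GENCODE M21 (GRCm38, the assembly of mm10). Whole reads were solved from base means under 10 with a tolerance of 1.2e-09: of 5380 such genes 5371 had 1 solution. A library's group was read from the sign of the deposited fold of genes with 1 read. The method was tested on simulated data. Python 3.11.15, numpy 2.4.6, scipy 1.17.1 and pandas 2.3.3 were used.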

Additional observations from a re-analysis of the deposited data

How the results depend on the processing

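No fit with another normalization, replicate left out or depth correction could be made, and no paired analysis was possible because the table has no per-sample values. Over 9 alternatives no result changed sign, but all except the centring on the median reuse the deposited folds unchanged. That centring moves folds by 0.050 and the smallest member fold is 0.30, so no member could change sign. Each member kept its side of the threshold wherever it was tested, though most alternatives start from the same deposited p-values. When genes whose standard error exceeded 0.5 were dropped, members called higher numbered 3, because Marco and Mrc1 were not tested, lipoprotein receptors called lower 0 and mannose receptor relatives called higher 1. With Holm adjustment 1551 genes were higher and 1376 lower among all tested genes. Under it lipoprotein receptors gave 5 higher and 1 lower, endocytic machinery 10 higher, partners and sheddases 6 higher, and other scavenger receptors and mannose receptor relatives 0 lower. With a test of an absolute log2 fold change above 1, 578 genes were higher and 146 lower. Under it the counts were 4 higher and 0 lower for other scavenger receptors, 2 and 1 for lipoprotein receptors and 1 and 0 for mannose receptor relatives. The counts higher were 10 for lipid handling, 6 for haem and iron, 2 for endocytic machinery, 4 for partners and 6 for regulators. At an adjusted p under 0.01, 1 lipoprotein receptor was lower. At an adjusted p under 0.1, and with folds centred on the median (a shift of 0.050), 1 haem and iron gene (Keap1), 2 partners (Thbs1 and Cd47) and 1 regulator (Cebpa) were lower. With base means of at least 100, 0 other scavenger receptors and 0 lipoprotein receptors were lower, since the genes that fell in these lists, such as Megf10 and Vldlr, were then not tested. With the p-values adjusted over the 9888 genes left, 1 haem and iron gene (Keap1) and 2 partners (Thbs1 and Cd47) were lower. The count changes under Holm adjustment and the absolute fold test follow from their stricter criteria. Cd163 had only 0 to 12 reads per library, and the part of depth in its missing call was not tested.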
